A study of Mus musculus with 24 samples.

Results

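Abca1 and Pltp are 2 of the 18470 genes counted in sorted mouse memory B cells, taken by gene symbol as a pair of targets of the liver X receptors (LXR) that act in the export of sterol and phospholipid from cells. ABCA1 is a membrane transporter that loads cholesterol and phospholipid onto lipid-poor apolipoproteins outside the cell. PLTP is a secreted protein that moves phospholipid between lipoprotein particles. LXRs are nuclear receptors that bind oxysterols, work as pairs with retinoid X receptors and raise transcription of both genes in macrophages, while SCAP escorts the SREBP factors that turn on sterol synthesis and uptake when sterol is low. Both genes had a row, and both passed the low-count filter that left 6779 genes for testing.

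Mice were given house dust mite through the nose and received the allergen again 6 weeks later, and memory B cells were sorted for bulk polyA RNA sequencing. All sample titles call these cells csMBC, read here as class-switched memory B cells. Each of 3 populations was taken from SCAP cKO mice (SCAP fl/fl hCD20-TamCre) and from WT mice (SCAP +/+ hCD20-TamCre). The populations were CCR6+CD69+ cells of the lung, CCR6-CD69- cells of the lung and circulating cells, with 4 libraries for each of the 6 groups, 2 of them in each of 2 labelled batches (replicates 1 and 2 in batch 1, replicates 3 and 4 in batch 2). Both genotypes carry hCD20-TamCre, a tamoxifen-dependent Cre driven from the CD20 gene of B cells, and SCAP was deleted before the second allergen exposure. The ages of the animals are not given in the labels, and lung is named as the source of every library, the circulating ones included. The labels do not say that replicates came from separate animals, so the spread among libraries behind each p-value may be technical. That spread was estimated within groups and batches over all 6 groups in 1 fit and drew on other genes as well.

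Libraries held from 129025 to 8566243 counts, so that 3 counts, the limit that a count of 0 allows, stood for 0.350 to 23.3 CPM (counts scaled to 1000000 per library). No source of error other than counting enters these limits. In 2 libraries the total was under 500000 counts: SCAP cKO lung CCR6-CD69- replicate 4 (129025) and WT circulating replicate 2 (356782). In SCAP cKO lung CCR6-CD69- replicate 1 and WT lung CCR6-CD69- replicate 2, Chil3, a gene of alveolar macrophages, had more counts than any other gene. Ms4a1, the gene of the B cell protein CD20, was detected in all 24 libraries. Scap, the targeted gene, averaged 82.7 ± 46.3 CPM in SCAP cKO and 86.6 ± 31.7 CPM in WT lung CCR6+CD69+ libraries, 90.0 ± 64.5 CPM in SCAP cKO and 149 ± 25.0 CPM in WT lung CCR6-CD69- libraries, and 223 ± 152 CPM in SCAP cKO and 104 ± 84.5 CPM in WT circulating libraries (SD, n = 4 each). No genotype difference of Scap passed edgeR's quasi-likelihood test (log2 fold changes 0.08, -0.54 and 1.26, adjusted p = 1.00, 0.998 and 0.673), so Scap counts did not separate the genotypes.

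The stretch just upstream of each gene's start is shown because LXR acts on promoters, where it binds pairs of AGGTCA half-sites spaced by 4 bases, and both genes are counted as LXR targets. The sequences are the 250 bases before the RefSeq start in build GRCm38.p6, which is not the build mm39 named in the submitters' processing notes. Capitals mark matches to the pair of half-sites in direct repeat, with up to 3 mismatches outside the spacer, and to the E-box CACGTG. Both strands were searched, and the matches do not overlap.
Abca1 (chr4:53159896-53160145, minus strand): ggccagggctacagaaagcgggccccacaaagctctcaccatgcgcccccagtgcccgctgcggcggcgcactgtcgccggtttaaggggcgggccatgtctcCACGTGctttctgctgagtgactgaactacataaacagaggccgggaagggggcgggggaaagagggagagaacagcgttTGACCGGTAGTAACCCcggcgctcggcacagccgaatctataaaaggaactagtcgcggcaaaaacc
Pltp (chr2:164857709-164857958, minus strand): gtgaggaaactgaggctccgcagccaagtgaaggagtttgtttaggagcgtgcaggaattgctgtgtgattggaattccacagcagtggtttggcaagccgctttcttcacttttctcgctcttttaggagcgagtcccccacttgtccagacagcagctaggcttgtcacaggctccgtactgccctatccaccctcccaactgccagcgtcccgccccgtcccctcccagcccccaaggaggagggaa
The Abca1 stretch held 1 match to the half-site pair, 67 to 52 bases before the start, on the strand opposite to the gene and with 3 mismatches. It also held 1 exact E-box, 147 to 142 bases before the start. The Pltp stretch held neither set of letters. Of 32851 RefSeq promoters of this length, 18.5% held a half-site pair at up to 3 mismatches and 6.02% an E-box, so a match of this kind is common and is given as a description. Bases further upstream were not searched for either gene, and binding of LXR was not tested.

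Over both genotypes, Abca1 was higher in lung CCR6+CD69+ memory B cells than in circulating ones, and Pltp was lower in lung CCR6+CD69+ cells than in both other populations. Abca1 also passed between lung CCR6-CD69- and circulating cells over both genotypes, close to the threshold (edgeR adjusted p = 0.0448), but in neither genotype alone. The pair therefore ran in opposite directions between lung CCR6+CD69+ and circulating cells. Neither gene passed the test between genotypes in any population.

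Abca1 had 209, 448, 1119 and 743 CPM in SCAP cKO lung CCR6+CD69+ replicates 1 to 4, and 437, 438, 949 and 1006 CPM in the WT ones. It had 342, 90.1, 633 and 1170 CPM in SCAP cKO lung CCR6-CD69- replicates 1 to 4, and 337, 535, 676 and 673 CPM in the WT ones. In circulating cells it had 253, 85.6, 187 and 201 CPM in SCAP cKO replicates 1 to 4, and 95.9, 157, 266 and 113 CPM in the WT ones. All circulating libraries were thus at or below 266 CPM. Of the lung libraries, SCAP cKO lung CCR6+CD69+ replicate 1 and SCAP cKO lung CCR6-CD69- replicate 2 fell within that range. These CPM leave out the TMM scaling factors that the tests use. Those factors ran from 0.596 in SCAP cKO circulating replicate 1 to 1.27 in WT circulating replicate 2. Library ranges on the scaled values were not compared. The 1170 CPM in SCAP cKO lung CCR6-CD69- replicate 4 rest on 151 counts in the smallest library.

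**Figure D1:**
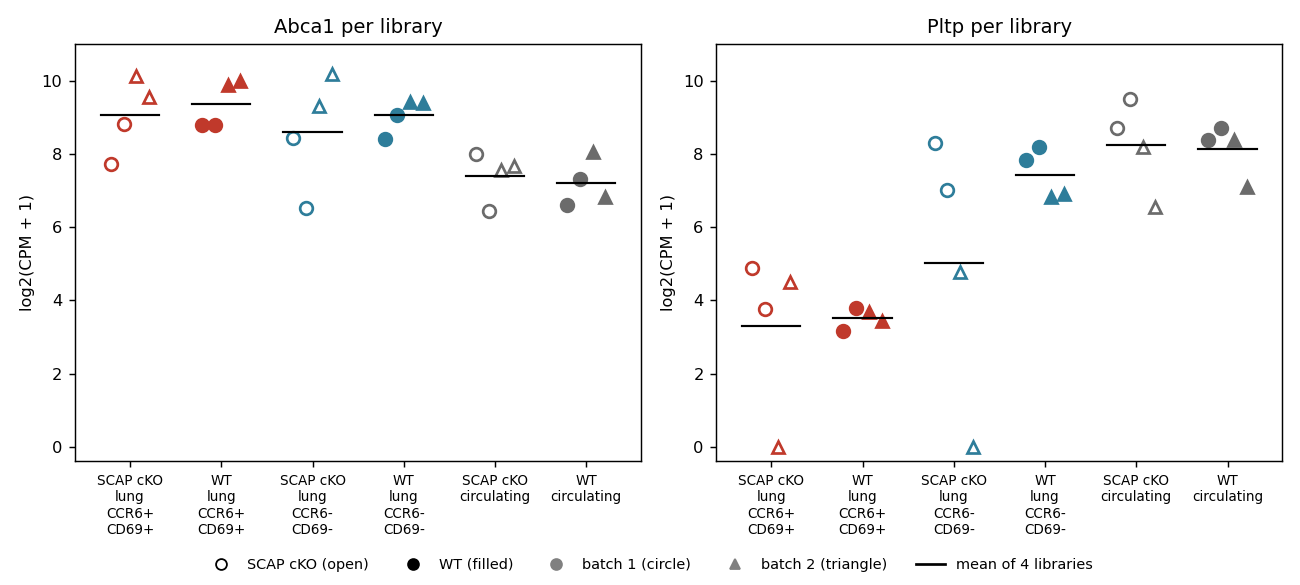
Abca1 (left) and Pltp (right) in each of the 24 libraries as log2(CPM + 1), with SCAP cKO left of WT in each population; circles are batch 1, triangles batch 2 and lines the mean of 4 libraries. Abca1 was at or below 266 CPM in all circulating libraries, and Pltp at or below 28.6 CPM in all lung CCR6+CD69+ libraries.

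In WT cells Abca1 averaged 708 ± 313 CPM in lung CCR6+CD69+ libraries, 555 ± 160 CPM in lung CCR6-CD69- libraries and 158 ± 76.7 CPM in those of circulating cells (SD, n = 4 each). Against WT circulating cells it was higher in WT lung CCR6+CD69+ cells by 2.10 ± 0.57 on the log2 scale (SE; edgeR quasi-likelihood test, adjusted p = 0.0405), a comparison in which 0.162% of tested genes were called higher. The 4 WT lung CCR6+CD69+ libraries all lay above the 4 WT circulating ones, as was so for 8.38% of tested genes in that direction. That call was close to the threshold. The adjusted p exceeded 0.05 when any 1 of the 12 WT libraries or SCAP cKO lung CCR6+CD69+ replicate 2, 3 or 4 was left out. The fold change lay between 1.87 and 2.26 over all 24 such fits. Of 15 other settings 9 kept the call, among them an exact permutation test whose p was not adjusted over genes. In WT lung CCR6-CD69- against WT circulating cells, the Abca1 difference was 1.79 ± 0.56 and did not pass (edgeR adjusted p = 0.299; 0.177% of genes passed), although these libraries did not overlap either, as in 4.43% of genes. Between WT lung CCR6+CD69+ and WT lung CCR6-CD69- cells, Abca1 differed by 0.31 ± 0.54 (edgeR adjusted p = 1.00, 95% interval -0.77 to 1.40).

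In SCAP cKO cells Abca1 averaged 630 ± 393 CPM in lung CCR6+CD69+ libraries, 559 ± 464 CPM in lung CCR6-CD69- libraries and 182 ± 69.9 CPM in those of circulating cells (SD, n = 4 each). None of the 3 differences passed edgeR's test: 1.23 ± 0.56 for lung CCR6+CD69+ against circulating cells (adjusted p = 0.347), 1.06 ± 0.56 for lung CCR6-CD69- against circulating cells (adjusted p = 0.377; 0.31% of genes passed), and 0.17 ± 0.54 between the lung populations (adjusted p = 0.955; 0.457% of genes passed), the last with the opposite sign under relative log expression scaling (-0.35). With both genotypes averaged, Abca1 was higher in lung CCR6+CD69+ than in circulating cells by 1.67 ± 0.40 (edgeR adjusted p = 0.00496; 1.55% of genes were called higher). It was higher in lung CCR6-CD69- than in circulating cells by 1.43 ± 0.40 (edgeR adjusted p = 0.0448; 0.561% of genes were called higher), and the lung populations differed by 0.24 ± 0.38 (edgeR adjusted p = 0.938), or by -0.053 under relative log expression scaling. The call for lung CCR6-CD69- against circulating cells was the less steady: of the fits without 1 library, 3 of 24 kept it, those without SCAP cKO lung CCR6-CD69- replicate 2 or 3 or SCAP cKO circulating replicate 1, and of other settings 7 of 15 kept it. The call for lung CCR6+CD69+ against circulating cells was kept in all 24.

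Pltp had 28.6, 12.7, 0 and 21.7 CPM in SCAP cKO lung CCR6+CD69+ replicates 1 to 4, and 7.94, 12.7, 11.9 and 9.76 CPM in the WT ones. It had 312, 129, 26.3 and 0 CPM in SCAP cKO lung CCR6-CD69- replicates 1 to 4, and 229, 288, 112 and 118 CPM in the WT ones. In circulating cells it had 416, 723, 288 and 91.7 CPM in SCAP cKO replicates 1 to 4, and 334, 415, 329 and 136 CPM in the WT ones. The 8 lung CCR6+CD69+ libraries all lay below the 8 circulating ones, a separation seen in that direction for 0.856% of tested genes. The 0 in SCAP cKO lung CCR6+CD69+ replicate 3 allows up to 1.44 CPM, while the 0 in SCAP cKO lung CCR6-CD69- replicate 4 allows up to 23.3 CPM.

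In WT cells Pltp averaged 10.6 ± 2.17 CPM in lung CCR6+CD69+ libraries, 187 ± 86.3 CPM in lung CCR6-CD69- libraries and 303 ± 118 CPM in those of circulating cells (SD, n = 4 each). It was lower in WT lung CCR6+CD69+ than in WT circulating cells, with a log2 fold change of -4.65 ± 0.94 (edgeR adjusted p = 0.00155), where 1.02% of genes were called lower. These libraries did not overlap, as in 3.72% of genes in that direction. It was also lower in WT lung CCR6+CD69+ than in WT lung CCR6-CD69- cells, with -3.81 ± 0.91 (edgeR adjusted p = 0.0392), where 0.295% of tested genes were called lower and where the libraries did not overlap, as in 3.89% of genes in that direction. This last call was lost when any of the 8 WT lung libraries, WT circulating replicate 1 or SCAP cKO circulating replicate 2 was left out, with fold changes of -4.18 to -3.48 over the 24 fits, and 12 of 15 other settings kept it. Between WT lung CCR6-CD69- and WT circulating cells Pltp differed by -0.84 ± 0.81 and did not pass (edgeR adjusted p = 0.999).

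In SCAP cKO cells Pltp averaged 15.7 ± 12.3 CPM in lung CCR6+CD69+ libraries, 117 ± 141 CPM in lung CCR6-CD69- libraries and 380 ± 265 CPM in those of circulating cells (SD, n = 4 each). It was lower in SCAP cKO lung CCR6+CD69+ than in SCAP cKO circulating cells, with -4.68 ± 0.94 (edgeR adjusted p = 0.00133; 1.46% of genes were called lower), and the libraries did not overlap, as in 2.4% of genes in that direction. The differences of -2.51 ± 0.88 between SCAP cKO lung CCR6+CD69+ and lung CCR6-CD69- cells and of -2.18 ± 0.85 between SCAP cKO lung CCR6-CD69- and circulating cells did not pass (edgeR adjusted p = 0.243 and 0.234). With both genotypes averaged, Pltp was lower in lung CCR6+CD69+ cells, with -4.67 ± 0.67 against circulating cells (edgeR adjusted p = 5.79e-07; 3.32% of genes were called lower) and -3.16 ± 0.64 against lung CCR6-CD69- cells (edgeR adjusted p = 0.00137; 1.36% of genes were called lower). Leaving out any 1 library kept both calls. Lung CCR6-CD69- and circulating cells differed in Pltp by -1.51 ± 0.58 over both genotypes, which did not pass (edgeR adjusted p = 0.186).

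**Figure D2:**
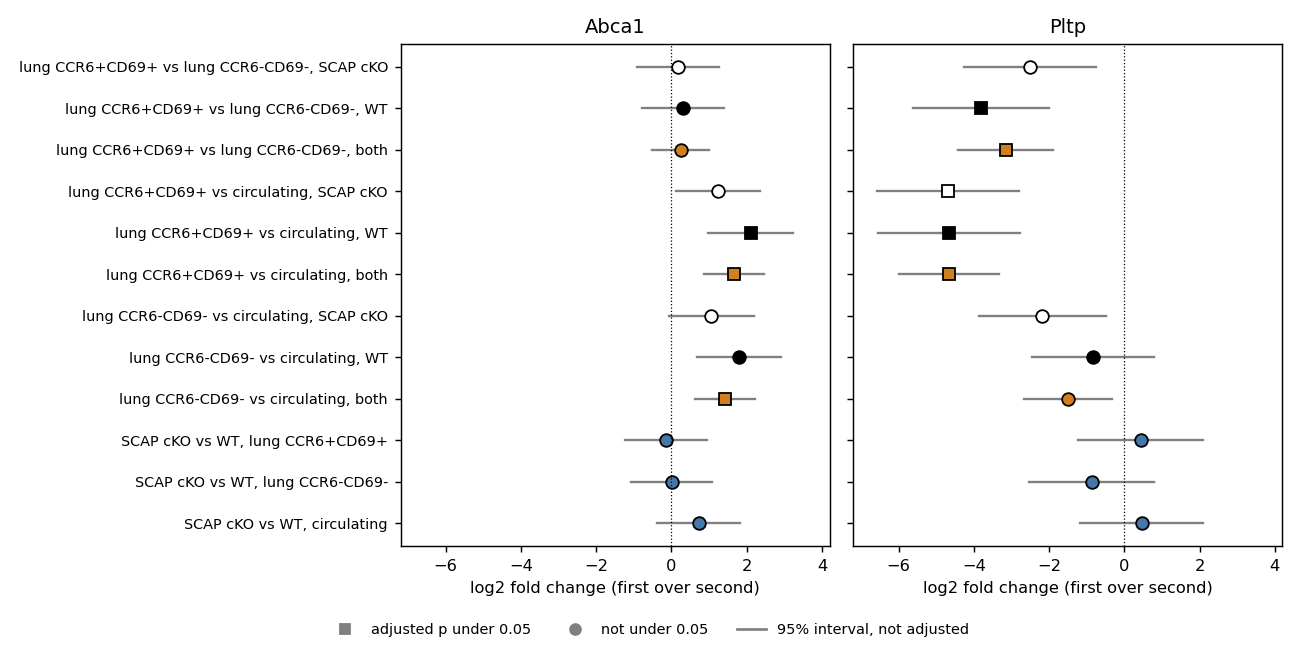
Log2 fold changes of Abca1 (left) and Pltp (right) from edgeR for the 3 population pairs in SCAP cKO (white), WT (black) and both genotypes (orange), and for SCAP cKO against WT (blue); lines are 95% intervals not adjusted for multiple testing and squares have an adjusted p under 0.05. All squares lie right of 0 for Abca1 and left of 0 for Pltp.

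The order of the group means for Abca1 was WT lung CCR6+CD69+, SCAP cKO lung CCR6+CD69+, SCAP cKO lung CCR6-CD69-, WT lung CCR6-CD69-, SCAP cKO circulating and WT circulating. Neighbouring groups in that order had overlapping libraries, except WT lung CCR6-CD69- (337 to 676 CPM) and SCAP cKO circulating (85.6 to 253 CPM). That step mixes genotype and population and was not tested. The 253 CPM belong to SCAP cKO circulating replicate 1, whose TMM factor of 0.596 is left out of CPM. The gap therefore need not hold on the scale of the tests. For Pltp the order was SCAP cKO circulating, WT circulating, WT lung CCR6-CD69-, SCAP cKO lung CCR6-CD69-, SCAP cKO lung CCR6+CD69+ and WT lung CCR6+CD69+. All 5 neighbouring pairs in that order overlapped, and none passed edgeR's test.

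SCAP deletion was the other comparison of the design. For Abca1 the log2 difference between SCAP cKO and WT cells was -0.14 ± 0.54 in lung CCR6+CD69+ (95% interval -1.22 to 0.94), 0.00 ± 0.54 in lung CCR6-CD69- (-1.07 to 1.07) and 0.73 ± 0.55 in circulating cells (-0.37 to 1.83). For Pltp it was 0.43 ± 0.83 in lung CCR6+CD69+ (-1.22 to 2.09), -0.87 ± 0.83 in lung CCR6-CD69- (-2.54 to 0.79) and 0.46 ± 0.82 in circulating cells (-1.17 to 2.09). None of these 6 values passed edgeR's test (adjusted p from 0.674 to 1.00), and the SCAP cKO and WT libraries overlapped for both genes in every population. The intervals are wide enough to hold changes of more than 1 log2 unit. Among all 6779 genes edgeR called 0 between genotypes in each population (0% of genes), with 155, 496 and 693 genes at an unadjusted p under 0.05 in lung CCR6+CD69+ cells, in lung CCR6-CD69- cells and in those that circulate; DESeq2 called 24, 94 and 332 genes, and limma voom called 0 in each. Whether the population differences themselves depended on genotype was tested as an interaction, SCAP cKO difference minus WT difference. For Pltp it was 1.31 ± 1.16 for lung CCR6+CD69+ against lung CCR6-CD69-, -0.03 ± 1.23 for lung CCR6+CD69+ against circulating and -1.34 ± 1.14 for lung CCR6-CD69- against circulating cells. For Abca1 it was -0.14 ± 0.77, -0.87 ± 0.77 and -0.73 ± 0.78 for the same 3 pairs, and none of the 6 passed (edgeR adjusted p from 0.803 to 1.00). In these interactions edgeR called 0 of all genes (0%), with 235, 367 and 575 at an unadjusted p under 0.05, and DESeq2 called 23, 65 and 161.

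The balance of the pair within a library restates the differences above. The number of Abca1 counts per Pltp count is given as a description, since it depends on the lengths of both transcripts but compares libraries on 1 scale. It lay between 7.32 and 35.4 in SCAP cKO lung CCR6+CD69+ replicates 1, 2 and 4 and was at least 777 in replicate 3, against 34.4 to 103 in the 4 WT lung CCR6+CD69+ libraries. It lay between 0.699 and 24.0 in SCAP cKO lung CCR6-CD69- replicates 1 to 3 and was at least 50.3 in replicate 4, against 1.47 to 6.02 in WT. In circulating cells it lay between 0.118 and 2.19 in SCAP cKO and between 0.287 and 0.831 in WT libraries. In WT the 3 populations did not overlap in this ratio. In SCAP cKO the lung CCR6-CD69- libraries overlapped both lung CCR6+CD69+ and circulating ones. How often other gene pairs separate in this way was not computed. Bounds are given where Pltp was 0, taking 3 counts per library as the limit.

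**Figure D3:**
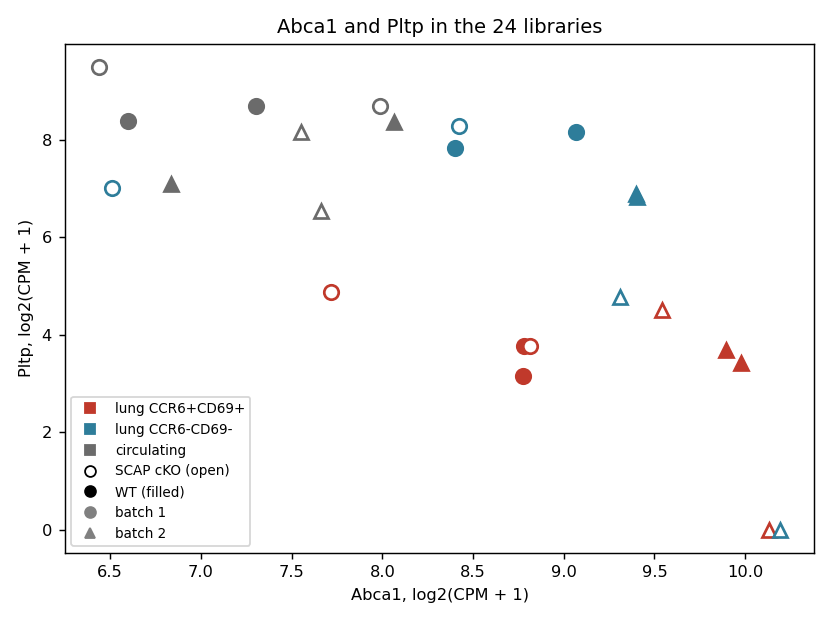
Abca1 (x axis) against Pltp (y axis), both as log2(CPM + 1), in each of the 24 libraries; colours are populations, open symbols SCAP cKO, filled symbols WT, circles batch 1 and triangles batch 2. Lung CCR6+CD69+ libraries lie low on the Pltp axis and circulating ones high on it and left on the Abca1 axis; the pair of symbols at 0 on the Pltp axis are SCAP cKO lung CCR6+CD69+ replicate 3 and SCAP cKO lung CCR6-CD69- replicate 4.

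Libraries of the 2 labelled batches differed in Pltp, and in lung cells in Abca1. In lung CCR6+CD69+ cells Abca1 averaged 931 CPM in SCAP cKO and 978 CPM in WT libraries of batch 2, against 329 and 438 CPM in those of batch 1, and in lung CCR6-CD69- cells it averaged 902 and 675 CPM in batch 2 against 216 and 436 CPM in batch 1 (n = 2 each). Batch 2 libraries were above batch 1 libraries in each of these 4 lung groups. Pltp ran the other way in lung CCR6-CD69- and circulating cells, where it averaged 13.2 CPM in SCAP cKO and 115 CPM in WT lung CCR6-CD69- libraries of batch 2 against 220 and 259 CPM in batch 1, and 190 and 232 CPM in SCAP cKO and WT circulating libraries of batch 2 against 569 and 374 CPM in batch 1. The batch term of the fit, looked at after the values were seen, was -1.68 ± 0.51 for Pltp (batch 2 over batch 1; edgeR adjusted p = 0.0262; 6.99% of genes were called lower) and 0.66 ± 0.33 for Abca1 (adjusted p = 0.243).

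The population differences called over both genotypes kept their directions in each batch alone. Over both genotypes, Pltp in lung CCR6+CD69+ against circulating cells was -5.01 in batch 1 alone (edgeR adjusted p = 8.11e-07) and -4.20 in batch 2 alone (adjusted p = 0.129). Against lung CCR6-CD69- cells it was -3.99 in batch 1 alone (edgeR adjusted p = 7.86e-05) and -1.91 in batch 2 alone (adjusted p = 0.544). Abca1 in lung CCR6+CD69+ against circulating cells was 1.31 in batch 1 alone (edgeR adjusted p = 0.235) and 2.39 in batch 2 alone (adjusted p = 0.0163). For lung CCR6-CD69- against circulating cells it was 0.99 in batch 1 alone (edgeR adjusted p = 0.375) and 2.12 in batch 2 alone (adjusted p = 0.0620). These fits have 2 libraries a group. In WT cells lung CCR6+CD69+ against circulating cells gave -5.19 for Pltp and 1.81 for Abca1 when batch 1 was fitted alone, and -4.34 and 2.43 for batch 2. Without the 2 libraries under 500000 counts the calls over both genotypes held, with Pltp at -4.82 and Abca1 at 1.64 for lung CCR6+CD69+ against circulating cells, and without the 2 libraries led by Chil3 they were -4.69 and 1.66; the Abca1 call for lung CCR6-CD69- against circulating cells held without the small libraries (1.19, edgeR adjusted p = 0.0461) and not without those led by Chil3 (1.36, adjusted p = 0.146).

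Some marker lists of other cell types were, like Pltp, lowest in lung CCR6+CD69+ libraries, while others were not. The sorted fractions are bulk samples, in which fewer cells of a type and less RNA per cell cannot be told apart. The 10 plasmacytoid dendritic cell genes with a row, of 20 listed, summed to 1222 to 2223 CPM in lung CCR6+CD69+, 2427 to 4704 CPM in lung CCR6-CD69- and 3248 to 8922 CPM in circulating libraries, so that the lung CCR6+CD69+ range lay below both others. Several genes of that list, such as Spib and Ly6d, are also expressed by B cells. Of these 10 genes, 8 were called lower in lung CCR6+CD69+ than in circulating cells (3.32% of all tested genes) and 5 lower than in lung CCR6-CD69- cells (1.36% of all tested genes) over both genotypes. Ccr9, a chemokine receptor of plasmacytoid dendritic cells and of some lymphocytes, was at 0 to 20.7 CPM in lung CCR6+CD69+ libraries, and at 0 in 4 of 8, against 136 to 2713 CPM in lung CCR6-CD69- and 109 to 1054 CPM in circulating ones.

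Natural killer cell genes (10 with a row of 14 listed) summed to 1.44 to 96.3 CPM in lung CCR6+CD69+, 0 to 926 CPM in lung CCR6-CD69- and 1339 to 3403 CPM in circulating libraries. Ncr1 and Nkg7, which define natural killer cells, had medians of 0.648 and 4.60 CPM in lung CCR6+CD69+ libraries, 0.780 and 0 CPM in lung CCR6-CD69- libraries, and 197 and 697 CPM in circulating ones. The natural killer sum in lung CCR6-CD69- cells was highest in the 2 libraries led by Chil3, at 926 CPM in SCAP cKO replicate 1 and 482 CPM in WT replicate 2. In that WT library 9 of the 10 genes were at 0, and in that SCAP cKO library 1 was. Of the 10 genes, all tested, 9 were called lower in lung CCR6+CD69+ than in circulating cells over both genotypes by edgeR (3.32% of all tested genes). Macrophage and monocyte genes (16 of 20) summed to 124 to 3660 CPM in lung CCR6+CD69+, 1122 to 52306 CPM in lung CCR6-CD69- and 794 to 5220 CPM in circulating libraries, with overlap between all 3. Csf1r, which defines that lineage, had medians of 3.60, 54.7 and 9.06 CPM in those populations. The 4 B cell genes with a row, of 11, summed to 2097 to 4618 CPM in lung CCR6+CD69+, 1241 to 3616 CPM in lung CCR6-CD69- and 874 to 2757 CPM in circulating libraries. Over both genotypes 3 were higher and 1 lower in lung CCR6+CD69+ than in circulating cells, and 2 were called higher (1.55% of all tested genes). These were Ms4a1 (1.17 ± 0.29, edgeR adjusted p = 0.00874) and Bank1 (1.43 ± 0.44, adjusted p = 0.0444).

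Plasma cell, T cell and conventional dendritic cell genes also included members that were lower in lung CCR6+CD69+ cells over both genotypes. The 3 plasma cell genes with a row, of 7, summed to 141 to 584 CPM in lung CCR6+CD69+, 393 to 5215 CPM in lung CCR6-CD69- and 574 to 3144 CPM in circulating libraries. Jchain, which encodes the joining chain of secreted antibody, was lower by edgeR's test against circulating cells (-2.85 ± 0.42, adjusted p = 4.11e-06) and against lung CCR6-CD69- cells (-3.11 ± 0.43, adjusted p = 5.08e-06), as was Sdc1, a surface marker of plasma cells. T cell genes (7 of 12) summed to 15.8 to 131 CPM in lung CCR6+CD69+, 23.3 to 559 CPM in lung CCR6-CD69- and 279 to 1990 CPM in circulating libraries. Of 6 tested, 3 were called lower in lung CCR6+CD69+ than in circulating cells over both genotypes (3.32% of all tested genes). Cd4, a coreceptor of helper T cells, was called lower against circulating cells (-5.24 ± 0.78, edgeR adjusted p = 2.92e-06) and against lung CCR6-CD69- cells (-3.65 ± 0.72, adjusted p = 0.00148). Cd3e, which defines T cells, had medians of 0 CPM in lung CCR6+CD69+, 1.83 CPM in lung CCR6-CD69- cells and 7.96 CPM in those that circulate. The medians of Cd4 were 8.08, 124 and 279 CPM in the same order, and which cells carried it was not tested.

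Conventional dendritic cell genes (7 of 10) had a median sum of 132 CPM in lung CCR6+CD69+, 204 CPM in lung CCR6-CD69- cells and 383 CPM in those that circulate, and the 3 ranges overlapped. Clec10a, a lectin of dendritic cells and macrophages, was called lower in lung CCR6+CD69+ than in circulating cells (-7.36 ± 1.09, edgeR adjusted p = 1.16e-06) and than in lung CCR6-CD69- cells (-4.58 ± 0.96, adjusted p = 0.00212). The list was mixed: of 6 genes tested over both genotypes, 3 were higher and 3 lower against circulating cells. Of these, 2 were called lower (3.32% of all tested genes). Against lung CCR6-CD69- cells 2 were higher and 4 lower, and Clec10a alone was called (1.36% of all tested genes were called lower). Granulocyte genes (9 of 12) had median sums of 136, 19.1 and 85.7 CPM in the same order of populations, and genes of lung epithelium, endothelium and stroma (8 of 12) had 329, 161 and 182 CPM, so neither was lowest in lung CCR6+CD69+ libraries. The part of any of these cells in the Pltp and Abca1 differences was not tested.

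**Figure D4:**
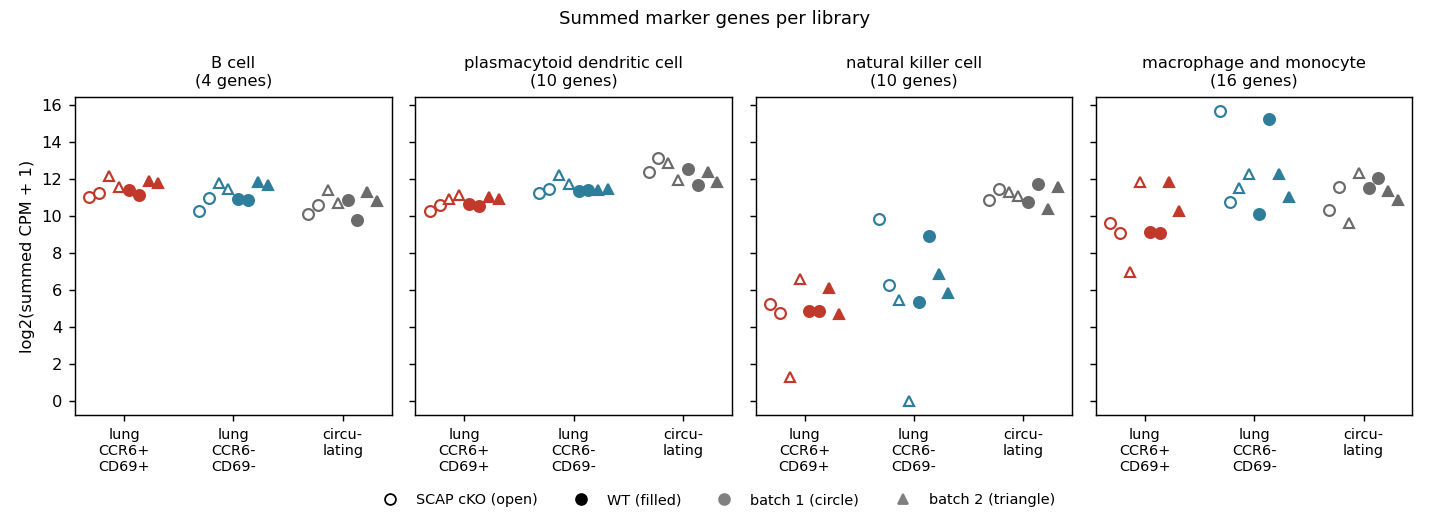
Summed CPM of marker genes per library, as log2(sum + 1), for 4 cell types in the libraries of the 3 populations; open symbols are SCAP cKO, filled symbols WT, circles batch 1 and triangles batch 2. Plasmacytoid dendritic cell genes were lowest in lung CCR6+CD69+ libraries (1222 to 2223 CPM), and natural killer genes were highest in circulating ones (1339 to 3403 CPM).

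The genes whose log2 CPM over the 24 libraries was most like that of Pltp were Fcer1g (Pearson r 0.92), Tyrobp (0.91), Ccnd1 (0.89), Irf7 (0.89) and Cdh1 (0.88). Fcer1g and Tyrobp encode signalling adaptors of receptors on myeloid and natural killer cells, Ccnd1 a cyclin, Irf7 a factor of interferon induction that is abundant in plasmacytoid dendritic cells and is also on the list of that cell type used here, and Cdh1 the adhesion protein E-cadherin. Tyrobp averaged 32.3 CPM in SCAP cKO and 23.3 CPM in WT lung CCR6+CD69+ libraries, 333 and 284 CPM in SCAP cKO and WT lung CCR6-CD69- libraries, and 922 and 625 CPM in SCAP cKO and WT circulating ones. For Abca1 the most alike were Mycbp2 (r = 0.79), Brca2 (0.76), Tbc1d9 (0.76), Abi2 (0.73) and Lrrcc1 (0.72). Mycbp2 encodes a ubiquitin ligase, Brca2 a DNA repair protein, Tbc1d9 a protein with a Rab GTPase-activating domain, Abi2 an actin regulator and Lrrcc1 a centrosome protein. Mycbp2 averaged 2421 CPM in SCAP cKO and 3025 CPM in WT lung CCR6+CD69+ libraries, 3463 and 1711 CPM in SCAP cKO and WT lung CCR6-CD69- ones, and 946 and 687 CPM in SCAP cKO and WT circulating ones. The SCAP cKO lung CCR6-CD69- mean of Mycbp2 was raised by replicate 4, at 10649 CPM. Brca2 owes its mean in that group to the same library, at 1535 CPM. This is the smallest library, and it also held the highest Abca1 value, 1170 CPM. The likeness was not ranked without it. The likeness pools populations and batches and carries no test; with rho in place of r, 3 of the 5 Pltp genes and 2 of the 5 Abca1 genes remained among the first 5. With batch removed the numbers were 2 and 3.

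**Figure D5:**
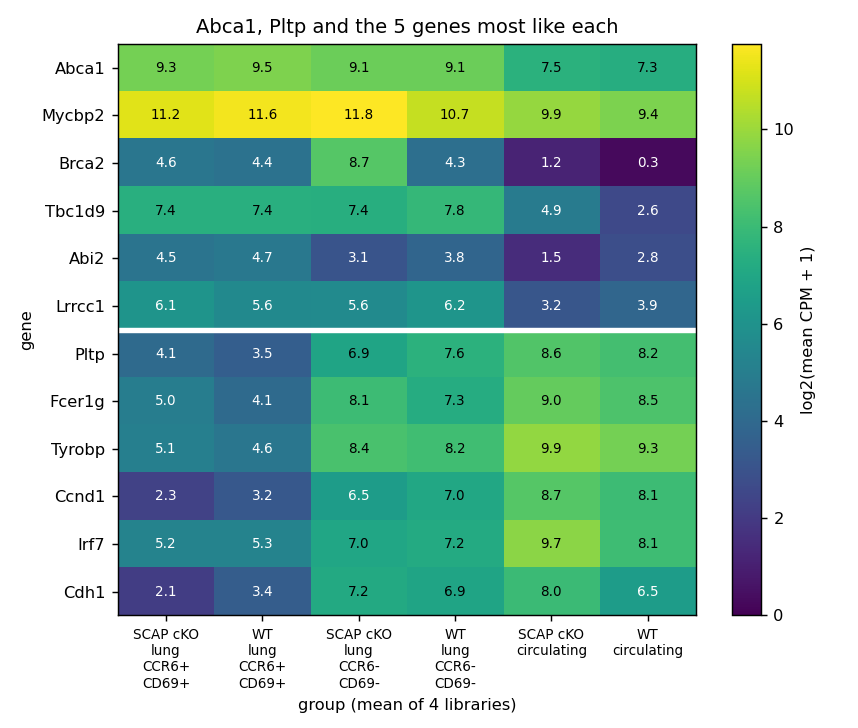
Log2(mean CPM + 1) of Abca1, Pltp and the 5 genes most like each over 24 libraries, in the 6 groups, with SCAP cKO left of WT; rows above the white line go with Abca1. Fcer1g, Tyrobp, Ccnd1, Irf7 and Cdh1 share with Pltp low means in both lung CCR6+CD69+ groups.

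Besides Abca1 and Pltp, 7 of 24 listed LXR targets were tested, and 1 of them was called in 1 of the 3 population pairs over both genotypes. Scd2, a fatty acid desaturase, was lower in lung CCR6+CD69+ than in circulating cells over both genotypes (-1.55 ± 0.46, edgeR adjusted p = 0.0323), where 3.32% of all tested genes were called lower. The remaining 6, Apoc2, Lpl, Arl4c, Mertk, Tgm2 and Rgs16, passed in none of the 3 population pairs over both genotypes. The median log2 fold change of the 7, beside that of all tested genes, was -0.40 beside 0.11 for lung CCR6+CD69+ against circulating cells and -2.01 beside 0.14 for lung CCR6+CD69+ against lung CCR6-CD69- cells. For lung CCR6-CD69- against circulating cells it was 2.16 beside -0.04. The 14 macrophage and monocyte genes tested, among them Mertk, which is on both lists, had medians of -0.66, -2.59 and 1.58 in the same 3 pairs, with 14 lower in the second pair and 12 higher in the third, called or not. The part of macrophages in the LXR target medians was not tested.

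Of the LXR receptors, Nr1h3 (LXR alpha) had counts in 2 of 4 WT lung CCR6-CD69- libraries, at most 38.2 CPM in replicate 2, a library led by Chil3, and was at 0 in the libraries of every other group, and Nr1h2 (LXR beta) was not analysed here. Of 10 tested partners and cofactors, among them Rxra and Rxrb, the dimer partners, and Ncor1, a corepressor, none passed in the 3 population pairs over both genotypes (edgeR adjusted p from 0.375 for Rxra upwards). Among the ABCA transporters 5 were tested, and Abca1 alone was called in those pairs. Abca7, another lipid transporter of the family, differed by -0.53 ± 0.50 between lung CCR6+CD69+ and circulating cells (edgeR adjusted p = 0.672). Of the list made up of Pltp and its relatives, 7 genes had a row, and Pltp alone was tested.

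Sterol transport and storage genes included 4 of 22 tested that were lower in lung CCR6+CD69+ than in circulating cells over both genotypes, and none that was higher, beside 3.32% of all tested genes called lower and 1.55% called higher. Lrp8, a receptor for apolipoprotein E, was lower, with -5.59 ± 0.64 (edgeR adjusted p = 4.52e-09), and with -3.95 ± 0.59 against lung CCR6-CD69- cells (adjusted p = 1.00e-05). Npc1, which moves cholesterol out of lysosomes, was lower, with -1.51 ± 0.42 against circulating cells (edgeR adjusted p = 0.0222) and -1.56 ± 0.42 against lung CCR6-CD69- cells (adjusted p = 0.0369). Cyp27a1, an enzyme that makes an oxysterol ligand of LXR, was lower against circulating cells, with -5.35 ± 1.24 (edgeR adjusted p = 0.00337). Osbpl3, a lipid transfer protein, was lower against circulating cells, with -2.98 ± 0.82 in lung CCR6+CD69+ (edgeR adjusted p = 0.0201) and -2.96 ± 0.83 in lung CCR6-CD69- cells (adjusted p = 0.0473). Lrp8, like Pltp, passed against circulating cells in each genotype on its own.

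Reads of Pltp can be shared with a neighbour. In the GRCm38 annotation (GENCODE vM21) Ctsa, a lysosomal protease gene, lies on the opposite strand and overlaps 495 of the 2562 exonic bases of Pltp (19.3%), and the use of strand in counting is not given in the sources used here. Ctsa averaged 189 ± 74.1 CPM in SCAP cKO and 233 ± 35.0 CPM in WT lung CCR6+CD69+ libraries, and 359 ± 271 CPM in SCAP cKO and 483 ± 253 CPM in WT circulating ones (SD, n = 4 each). Its own difference between these populations over both genotypes was -1.07 ± 0.46 and did not pass (edgeR adjusted p = 0.191). Abca1 overlaps no other gene in that annotation.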

How the data were processed

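PolyA RNA of sorted memory B cells was sequenced in 24 libraries (6 groups of 4) prepared with an xGen kit for low input, per the labels' protocols. The file the authors deposited holds raw counts as whole numbers, with a row for each of 18470 gene symbols. FastQC, STAR, Salmon and build mm39 appear in the submitters' processing notes with no version or role; the tool that made the counts and its use of strand are not given in the sources used here. Totals are over the rows analysed. CPM is a count divided by its library's total and multiplied by 1000000, without the TMM factors. The log2 CPM of the likeness ranking and of the permutation test did use those factors.

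Counts were tested with edgeR 4.0.16 in R 4.3.3: TMM scaling, filterByExpr by group (6779 genes kept), robust quasi-likelihood F-test, all 24 libraries in 1 fit with group and batch, and Benjamini-Hochberg adjustment over the genes tested in each of 15 comparisons, with 0.05 as the threshold. SE is the log2 fold change over the root of F. Likeness was ranked on log2 CPM with a prior count of 2, and the named genes were the pair, the 5 genes most like each, Scap, Ctsa for its overlap, list members that passed and defining markers. Alternatives used DESeq2 1.42.0, limma 3.58.1 (voom), other scaling, filters, batch terms and left-out libraries, and the scripts were tested on simulated data. An exact permutation test of log2 CPM is also among the 15 other settings given for population pairs. Its p was not adjusted over genes and was held against the same threshold of 0.05. One listed B cell marker is not reported here. Abca1, Pltp and all lists were chosen with earlier results of these data known, so no p-value stands for an unselected gene.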

Additional observations from a re-analysis of the deposited data

How the results depend on the processing

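Values are log2 fold changes, with the adjusted p of the same fit in brackets. The exact permutation test is among the 15 alternatives. Its p, not adjusted over genes, was held against the same threshold when kept calls were counted. The differences of Pltp in lung CCR6+CD69+ against circulating cells, in WT, SCAP cKO and over both genotypes, and against lung CCR6-CD69- cells over both genotypes, kept direction and call in 14 of 15 alternatives each and in all 24 fits without 1 library. The exception was batch 2 alone, with -4.34 (0.849), -4.06 (0.336), -4.20 (0.129) and -1.91 (0.544). Abca1 in lung CCR6+CD69+ against circulating cells over both genotypes did so in 14 of 15 alternatives and all 24 fits, the exception being batch 1 alone, with 1.31 (0.235).

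Calls near the threshold were lost more often. Abca1 in WT lung CCR6+CD69+ against WT circulating cells was 2.01 (0.0562) with relative log expression factors, 2.17 (0.0898) with no batch term, 2.10 (0.0507) without the libraries led by Chil3, and 1.81 (0.442) and 2.43 (0.417) in batches 1 and 2 alone. Pltp in WT lung CCR6+CD69+ against WT lung CCR6-CD69- cells was -4.15 (0.177) with no batch term and -3.33 (1.00) in batch 2 alone. Abca1 in lung CCR6-CD69- against circulating cells over both genotypes was 1.22 (0.216) with limma voom, 1.56 (0.0514) with no batch term, 0.99 (0.375) and 2.12 (0.0620) in batches 1 and 2 alone, 1.49 (0.158) with only the groups compared and 1.36 (0.146) without the libraries led by Chil3. The causes were not tested. In the other direction, DESeq2 called Pltp in SCAP cKO lung CCR6+CD69+ against lung CCR6-CD69- cells (-2.69, 0.0221), and a two-sided exact permutation test gave 1.85 with p = 0.0286, the smallest that 4 against 4 libraries allow and not adjusted over genes, for Abca1 in WT lung CCR6-CD69- against WT circulating cells.

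Reversed signs concern differences that passed in neither fit. Abca1 between the lung populations was -0.35 in SCAP cKO and -0.053 over both genotypes with relative log expression factors, -0.34 and -0.052 with DESeq2, and -0.062 for SCAP cKO in batch 2 alone; that scaling moved the median of all genes by -0.19 and -0.11 in these comparisons. Abca1 in SCAP cKO against WT lung CCR6-CD69- cells was -0.44 with limma voom, -0.037 with no filter, -0.73 in batch 1 alone, -0.21 with only the groups compared, -0.27 without the small libraries and -0.29 by the difference of mean log2 CPM. In lung CCR6+CD69+ cells that genotype difference was 0.022 without the small libraries. The genotype difference of Pltp in lung CCR6+CD69+ cells was -0.17 with limma voom and by mean log2 CPM and -0.032 in batch 2 alone, in lung CCR6-CD69- cells 0.039 in batch 1 alone and in circulating cells -0.32 in batch 2 alone. The Pltp interaction for lung CCR6+CD69+ against circulating cells was 0.057 with relative log expression factors, 0.058 with DESeq2, 0.11 with no filter, 0.35 and 0.29 in batch 1 and batch 2 alone and 0.39 without the small libraries. The Abca1 interaction between the lung populations was 0.25 with limma voom, 0.51 in batch 1 alone, 0.026 with only the groups compared and 0.29 without the small libraries, and that for lung CCR6-CD69- against circulating cells was 0.58 in batch 2 alone.

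Without 1 library at a time, Abca1 in WT lung CCR6+CD69+ against WT circulating cells gave values between 1.87 and 2.26, and it ran from 1.11 to 1.80 in lung CCR6-CD69- against circulating cells over both genotypes and from -0.17 to 0.75 between the SCAP cKO lung populations. Its genotype difference ran from -0.37 to 0.055 in lung CCR6+CD69+, from -0.58 to 0.36 in lung CCR6-CD69- and from -0.063 to 0.97 in circulating cells, and its interactions from -0.50 to 0.39 between the lung populations and from -1.29 to 0.024 for lung CCR6-CD69- against circulating cells. Pltp in WT lung CCR6+CD69+ against WT lung CCR6-CD69- cells lay between -4.18 and -3.48, and it ran from -0.53 to 0.86 for the genotype difference in lung CCR6+CD69+ cells and from -0.90 to 0.36 for its interaction in lung CCR6+CD69+ against circulating cells.

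For the pairing of replicate numbers, 24 correlations of deviations from the group means between libraries with the same number, which share a batch, ran from 0.080 to 0.228, with 20 of 24 over 0.1 and 17 best with their own number. After batch was also removed they ran from -0.12 to 0.073, with 0 over 0.1 and 3 best with their own number. Pairing beyond batch was thus not seen, and the labels do not say what a shared number marks. With the replicate block, Pltp in WT lung CCR6+CD69+ against WT lung CCR6-CD69- cells was -3.80 (0.0514), Abca1 in WT lung CCR6+CD69+ against WT circulating cells 2.11 (0.0502), Abca1 in lung CCR6-CD69- against circulating cells over both genotypes 1.45 (0.0626), and Abca1 in SCAP cKO against WT lung CCR6-CD69- cells -0.052 (0.999). With the number in the library name as replicate block, Abca1 was 1.43 (0.0870) in lung CCR6-CD69- against circulating cells and 0.089 for its interaction between the lung populations. No other call changed under either block. Counts of called genes moved more than the pair: for lung CCR6+CD69+ against circulating cells over both genotypes, 330 genes were called, and 79 to 826 in the alternatives. The count was 98 (19 to 307) for lung CCR6+CD69+ against lung CCR6-CD69- cells and 106 (19 to 602) for lung CCR6-CD69- against circulating cells over both genotypes. In the same order of pairs, led by lung CCR6+CD69+ against circulating cells, it was 104 (15 to 576), 31 (8 to 396) and 21 (1 to 560) in SCAP cKO, and 80 (3 to 357), 20 (2 to 155) and 12 (0 to 192) in WT cells. In the smallest library, with 129025 counts, a Pltp count of 0 allows up to 23.3 CPM.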
